A study of Mus musculus with 8 samples.

Results

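The genes described here encode the subunits of the mitochondrial respiratory chain and of the ATP synthase that are made from nuclear DNA. They were chosen by name alone, as the protein-coding genes of the GENCODE M21 annotation (mouse build GRCm38) whose symbols begin with Nduf and the letter a, b, c, s or v and a digit, with Uqcr, with Cox and a digit from 4 to 8, or with Atp5, together with Sdha, Sdhb, Sdhc, Sdhd and Cyc1. The annotation holds 86 such genes, and 81 of them are listed in the deposited table of 13305 genes. Of these, 35 belong to complex I, 4 to complex II, 9 to complex III, 16 to complex IV (with Ndufa4 counted there) and 17 to complex V. Cox7b2, Cox8b, Cox8c, Ndufa4l2 and a further gene identifier that also carries the symbol Atp5o are not listed. The low-count filter of the test removed none of the 81 genes. The rule does not reach Ndufab1, a further complex I subunit, whose log2 fold change in AML KO over AML WT mice was 0.17.

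As background, complex I (NADH dehydrogenase) and complex II (succinate dehydrogenase, also an enzyme of the citrate cycle) feed electrons into ubiquinone, complex III (the cytochrome bc1 complex) passes them to cytochrome c, and complex IV (cytochrome c oxidase) hands them to oxygen. Complexes I, III and IV pump protons across the inner mitochondrial membrane, and complex V (the ATP synthase) uses the returning protons to make ATP. The core subunits include those that bind the flavins, iron-sulfur clusters, haems or nucleotides. Outside complex II, many small accessory subunits surround the core. A few hydrophobic subunits are encoded by mitochondrial DNA, complex II being made from nuclear genes alone. Leukaemic cells of acute myeloid leukaemia (AML) are known for relying on this pathway.

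Whole bone marrow (BM) was taken from 8 C57BL/6N mice, with 1 library of total RNA each: 3 AML WT (Gab2+/+), 2 AML HET (Gab2+/-) and 3 AML KO (Gab2-/-) mice. Every mouse, controls included, also carried Mx1-Cre, Dnmt3a+/- and Flt3ITD/ITD, so the comparisons are between Gab2 genotypes within one leukaemia model, and mice with normal marrow were not analysed here. Dnmt3a is deleted in this model wherever the Mx1 promoter, which is active in blood cells and several other tissues, drives Cre, which in this study happened without an inducer being injected, and Flt3ITD is a constitutively active receptor. Gab2 is a docking protein that couples receptor tyrosine kinases to the PI3 kinase and RAS pathways. Gab2 itself was measured at 93.9, 68.5 and 61.6 CPM (read counts scaled to a common library size) in AML WT, 55.8 and 50.8 CPM in AML HET and 35.0, 47.2 and 40.2 CPM in AML KO mice, and it fell in AML KO mice (log2 fold change -0.87, adjusted p = 0.042, from the quasi-likelihood test of edgeR after Benjamini-Hochberg adjustment, as for all adjusted p given here). Reads that remained on Gab2 in AML KO mice may lie outside the disrupted part of the gene (a neomycin cassette replaces several of its exons), which counts per gene cannot show.

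Some properties of the libraries bear on every value below. They hold 28009258 to 39266815 counts each, and all pairs of libraries within a group differed by more than counting noise. AML WT replicate 1 and AML KO replicate 1 stood apart from the other libraries in opposite directions along gene length: over 13266 genes with a known length, Spearman's correlation between the length of a gene's merged exons and its deviation from the mean of all mice was 0.53 in AML WT replicate 1 and -0.48 in AML KO replicate 1, against -0.17 to 0.14 in the other 6 libraries. Along GC content the largest such correlation was -0.47, in AML HET replicate 1. These are descriptions across genes of single libraries, which share their length and base composition. Whole BM holds many cell types, and markers of several of them moved with the genotype. All 15 erythroid markers had higher values in AML KO than in AML WT mice and 12 of them rose, with a summed level of 350 to 497 CPM in AML WT, 758 to 2359 CPM in AML HET and 1630.1 to 5634 CPM in AML KO mice. All 10 mature neutrophil markers were higher and 6 rose, with sums of 1279 to 4669 CPM in AML WT and 10403 to 17056 CPM in AML KO mice, and all 10 megakaryocyte and platelet markers rose, from 29.7 to 32.1 CPM to 214 to 325 CPM. In each of these 3 lists the lowest sum was that of AML WT replicate 1 and the highest that of AML KO replicate 1. No marker of the 3 lists was at 0 in any mouse. Of the other marker lists, 2 of 5 progenitor markers rose (Cd34 and Cd27, with list sums of 585 to 627 CPM in AML WT and 713 to 862 CPM in AML KO mice), as did 1 of 10 monocyte and macrophage markers (Vcam1, with 4 of 10 above 0). None of the 4 primary granule markers passed the test, all 4 being above 0 with a median log2 fold change of 0.35, nor did any B cell, T and NK cell or stromal and endothelial marker. The part of cell makeup or of library length in the values of the subunit genes was not tested, and in whole BM fewer cells of a type and less RNA per cell cannot be told apart.

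Between AML KO and AML WT mice, none of the 81 subunit genes passed edgeR's quasi-likelihood test at an adjusted p under 0.05, where 2.09% of all genes tested did. DESeq2, which called 5.49% of all genes, and limma-voom, which called 2.08%, called none of them either. At an unadjusted p under 0.05 the quasi-likelihood test found 14 of the 81, or 17.3%, beside 17.7% of all genes. DESeq2 found 17 beside 19.8% of all genes at that level, and limma-voom 16 beside 17.8%. The 14 of the quasi-likelihood test were all higher in AML KO mice, as were 9.77% of all genes at that level. Although no single gene was called, the values leaned one way: 69 of the 81 genes had a log2 fold change above 0 and 12 below, with a median of 0.29, whereas 48.1% of all genes were above 0 and their median was -0.02.

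The lean was uneven across the mice. Relative to the mean of the AML WT mice, the median log2 level over the 81 genes was -0.34, 0.17 and 0.16 in AML WT, 0.02 and 0.16 in AML HET and 0.58, 0.19 and 0.20 in AML KO mice. Of the 8 mice, AML WT replicate 1 lay lowest and AML KO replicate 1 highest. AML KO replicates 2 and 3 were close to AML WT replicates 2 and 3 and slightly above them. The lowest value of all 8 mice was that of AML WT replicate 1 for 64 of the 81 genes (79.0%, beside 25.2% of all genes), and the highest that of AML KO replicate 1 for 60 (74.1%, beside 28.7%). In a fit without these 2 mice, chosen after their values were seen, the median over the 81 genes was 0.01 and 44 genes were above 0. Leaving out the lowest control and the highest knockout mouse narrows the difference by construction. Without AML WT replicate 1 alone the median was 0.15, the lowest of the fits without 1 mouse, and without AML WT replicate 2 it was 0.41, the highest.

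**Figure D1:**
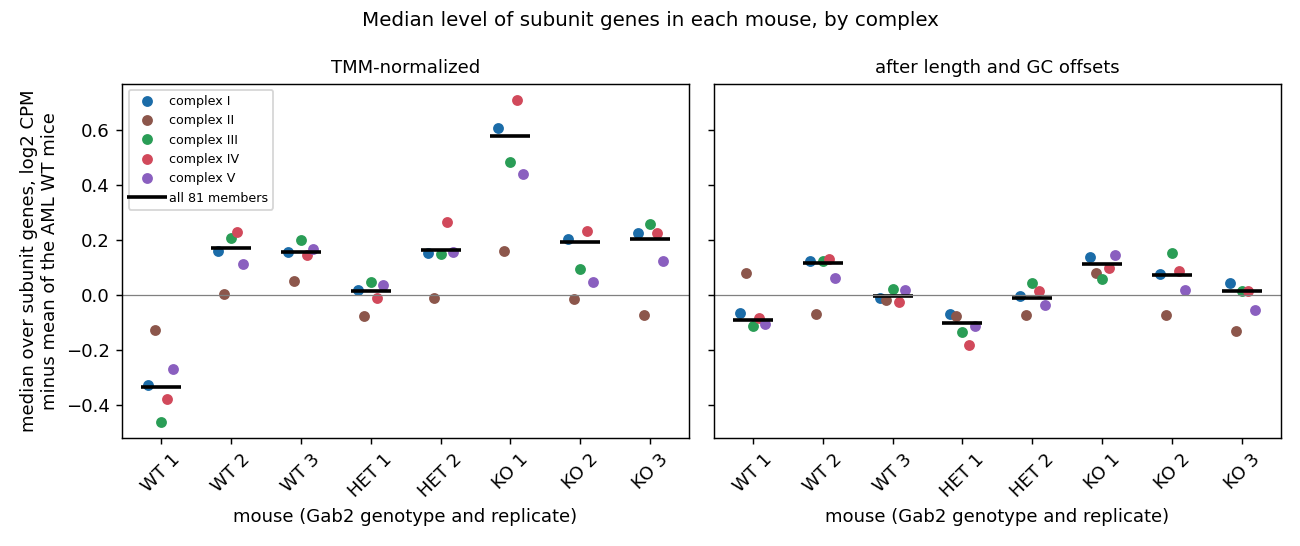
Median over the subunit genes of each complex (coloured points) and over all 81 genes (black bars) of log2 CPM minus the mean of the AML WT mice, for each of the 8 mice, with TMM normalisation (left) and after offsets for exon length and GC content (right). Over all 81 genes, AML WT replicate 1 sits at -0.34 and AML KO replicate 1 at 0.58 on the left. On the right the black bars of all mice lie between -0.10 and 0.11. The points of single complexes reach from -0.18 (complex IV, AML HET replicate 1) to 0.15 (complex III, AML KO replicate 2) there.

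The groups did not overlap for 15 of the 81 genes (18.5%, beside 22.1% of all genes): 13 were higher in every AML KO mouse than in every AML WT mouse (12.3% of all genes were), and Ndufs1 and Ndufa9 were lower (9.83% of all genes were). By complex, the median log2 fold change was 0.33 in complex I with 31 of 35 genes above 0, 0.08 in complex II with 2 of 4, 0.28 in complex III with 6 of 9, 0.37 in complex IV with 16 of 16 and 0.24 in complex V with 14 of 17. Complex II, which has no accessory subunits, had the lowest median.

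**Figure D2:**
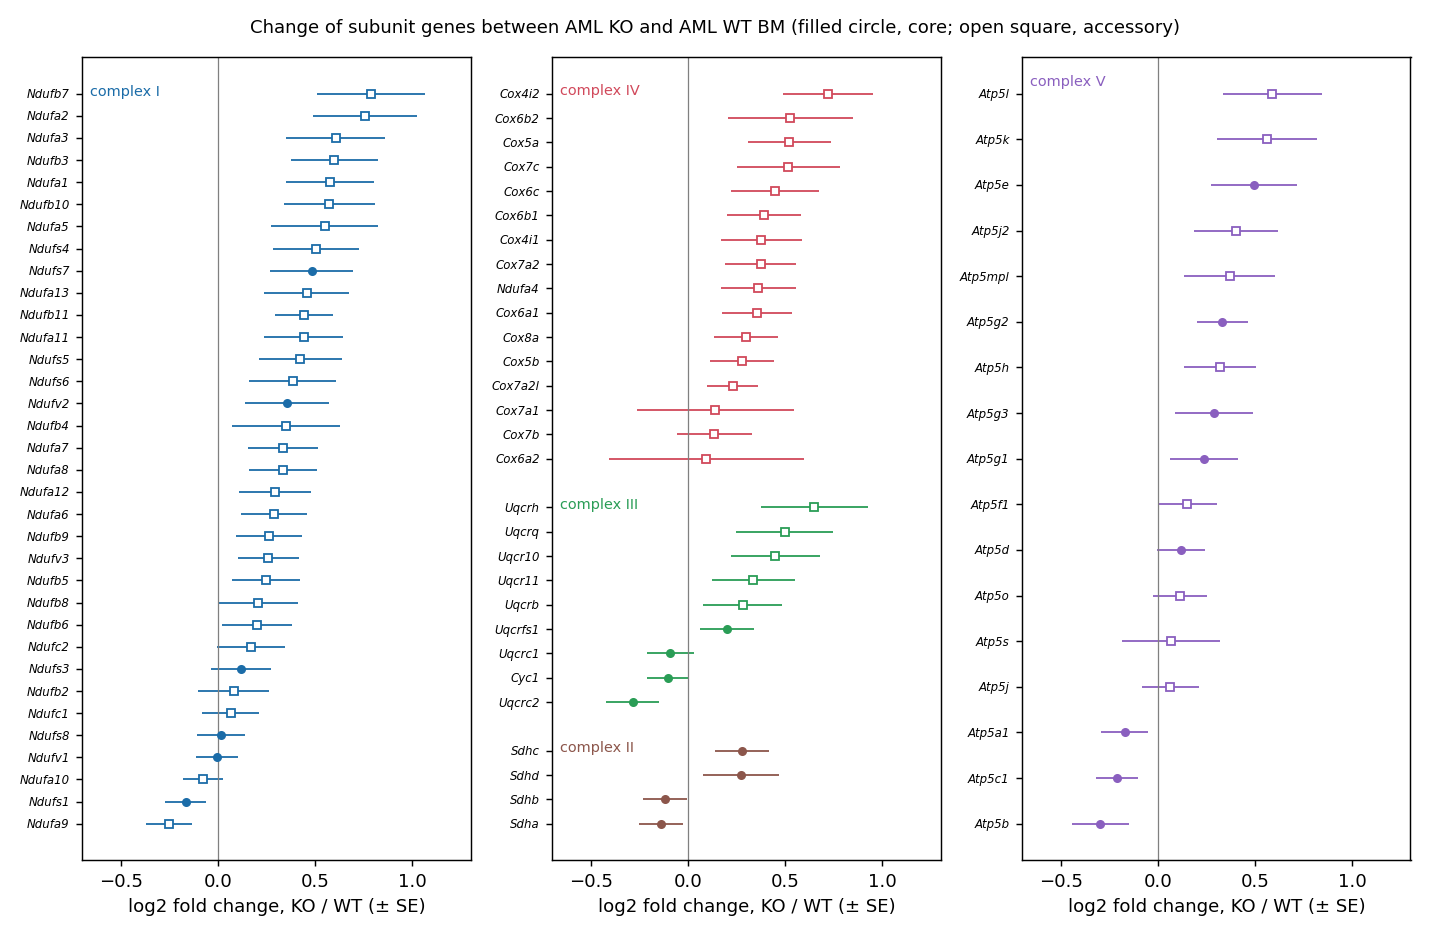
Log2 fold change of AML KO over AML WT mice for 80 of the 81 subunit genes, by complex, with the standard error of the fit as bars. Values run from -0.30 (Atp5b) to 0.79 (Ndufb7), and none passed an adjusted p of 0.05.

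Core and accessory subunits differed in their values. Here 23 genes were counted as core, among them Ndufs1, Ndufs3, Ndufs7, Ndufs8, Ndufv1 and Ndufv2, all of complex II, Uqcrc1, Uqcrc2, Cyc1 and Uqcrfs1, and the F1 and c-ring subunits of complex V. The other 58, which include all nuclear subunits of complex IV and the stalk and membrane subunits of complex V, were counted as accessory. The summed level of the core genes was 5281, 5308 and 5407 CPM in AML WT, 4781 and 5036 CPM in AML HET and 5452, 5363 and 4875 CPM in AML KO mice. That of the accessory genes was 4565, 6965 and 6825 CPM in AML WT, 6241 and 6944 CPM in AML HET and 9548, 7016 and 7174 CPM in AML KO mice. The core sums of AML WT and AML KO mice overlapped, those of both AML HET mice lay below every AML WT mouse, and the accessory sums were set apart by AML WT replicate 1 and AML KO replicate 1, the other AML KO mice lying just above the highest AML WT mouse. The median log2 fold change was 0.10 over the core genes, with 13 of 23 above 0, and 0.36 over the accessory genes, with 56 of 58 above 0. Within complex I it was 0.10 for core and 0.34 for accessory genes, within complex III -0.10 and 0.45, and within complex V 0.18 and 0.32.

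**Figure D3:**
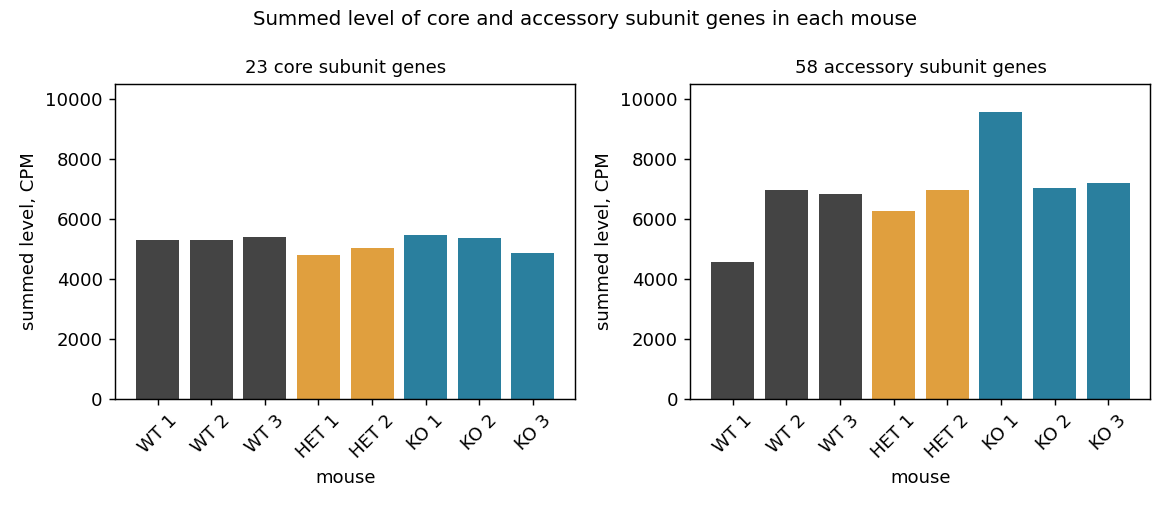
Summed CPM of the 23 core (left) and 58 accessory (right) subunit genes in each of the 8 mice, 1 bar per mouse. Core sums lie between 4781 and 5452 CPM, and accessory sums run from 4565 CPM in AML WT replicate 1 to 9548 CPM in AML KO replicate 1.

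Accessory subunit genes are also short. The merged exons of the accessory genes had a median length of 776.5 bases and those of the core genes 1623 bases. All 42 subunit genes of at most 1000 bases were above 0, with a median log2 fold change of 0.38, and of the 39 longer ones 27 were, with a median of 0.12. Among all 998 genes of at most 1000 bases in the table the median was 0.30 and 749 were above 0, whereas the 12268 longer genes had a median of -0.03. Of all such short genes, 55.0% were lowest in AML WT replicate 1 and 59.8% highest in AML KO replicate 1. Across the 81 genes Spearman's correlation of the log2 fold change with exon length was -0.60, and across 13266 genes -0.39; genes of a library share its length and base composition. With offsets that level each library along exon length and GC content, the median over the 81 genes was 0.04 with 47 above 0. It was -0.18 over the core genes, with 7 of 23 above 0, and 0.10 over the accessory genes, with 40 of 58 above 0. The offsets left none of the 81 genes at an adjusted p under 0.05, beside 2.68% of all genes, and 18 (22.2%) had an unadjusted p under 0.05, beside 17.7% of all genes in that fit. These 18 were 8 of the 23 core genes and 10 of the 58 accessory genes. Cyc1 was the nearest to the threshold after the offsets (log2 fold change -0.45, adjusted p = 0.0906 in edgeR's quasi-likelihood test), and it was named after its value was seen.

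**Figure D4:**
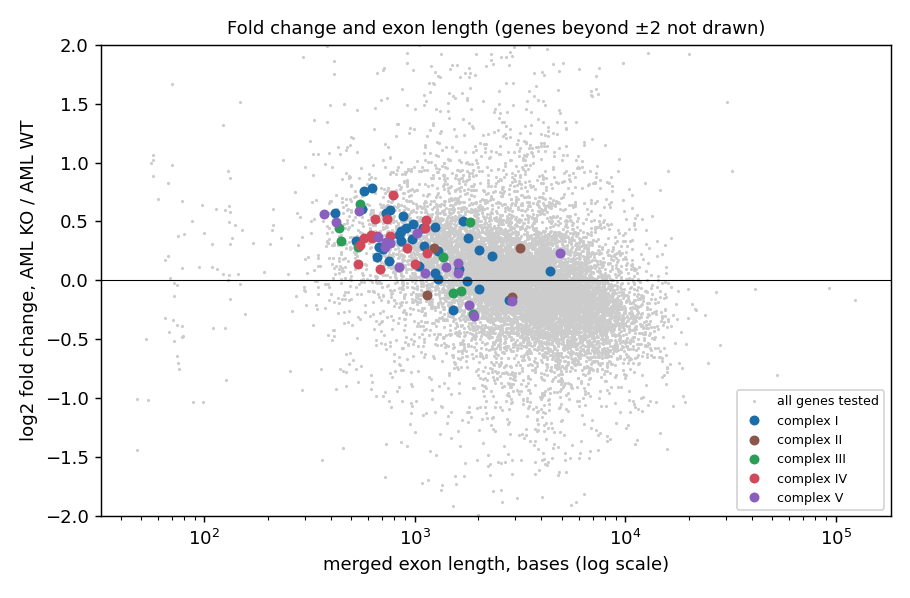
Log2 fold change of AML KO over AML WT mice against merged exon length (log scale) for all genes tested (grey; genes beyond 2 in either direction are not drawn) and for the subunit genes (coloured by complex). The subunit genes of at most 1000 bases all lie above 0, and those below 0 are longer than 1000 bases.

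In complex I, the largest assembly, the smallest p belonged to Ndufb11, Ndufb7 and Ndufa2, all accessory subunits. Ndufb11, an accessory subunit of the membrane arm, was measured at 119, 157 and 151 CPM in AML WT, 143 and 165 CPM in AML HET and 224, 178 and 178 CPM in AML KO mice (log2 fold change 0.44, standard error 0.151, adjusted p = 0.208). Every AML KO mouse lay above every AML WT mouse, with AML KO replicate 1 the highest of all. Ndufb7 was measured at 76.8, 158 and 151 CPM in AML WT, 136 and 164 CPM in AML HET and 292, 173 and 199.97 CPM in AML KO mice (log2 fold change 0.79, standard error 0.279, adjusted p = 0.22). Its level in AML WT replicate 1 was far below that of the other AML WT mice. For Ndufa2 the values were 53.3, 99.3 and 105 CPM in AML WT, 89.3 and 111 CPM in AML HET and 191, 119.7 and 124 CPM in AML KO mice (log2 fold change 0.76, standard error 0.268, adjusted p = 0.221). Here too the groups did not overlap, and AML KO replicates 2 and 3 lay closer to AML WT replicates 2 and 3 than to AML KO replicate 1. Of the other complex I genes without overlap, Ndufb3 (0.60 ± 0.226, log2 fold change ± standard error), Ndufa3 (0.60 ± 0.257), Ndufa1 (0.58 ± 0.227) and Ndufa7 (0.33 ± 0.178) were higher in AML KO mice.

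The complex I core genes showed smaller differences. Ndufs1, which carries iron-sulfur clusters of the electron path, was measured at 90.7, 95.1 and 90.6 CPM in AML WT, 90.7 and 89.4 CPM in AML HET and 87.8, 79.01 and 79.1 CPM in AML KO mice (log2 fold change -0.17, standard error 0.105, adjusted p = 0.391). It was lower in all 3 AML KO mice than in any AML WT mouse, by an amount small beside its level. Ndufa9, an accessory subunit at the base of the peripheral arm, behaved alike, with 75.3, 77.3 and 75.2 CPM in AML WT, 66.3 and 67.1 CPM in AML HET and 55.8, 70.97 and 64.2 CPM in AML KO mice (log2 fold change -0.25, standard error 0.119, adjusted p = 0.299). Ndufs3 differed by 0.12 ± 0.155, Ndufs8 by 0.01 ± 0.123 and Ndufv1, the NADH-binding flavoprotein, by -0.01 ± 0.109. The groups of these 3 genes overlapped. Ndufv2 (0.36 ± 0.216) and Ndufv3 (0.26 ± 0.156), which sit beside Ndufv1 in the NADH module, were higher on average with overlapping groups. The iron-sulfur subunit Ndufs7 had the largest difference of the core genes of complex I, with 61.1, 82.97 and 97.5 CPM in AML WT, 80.005 and 104 CPM in AML HET and 142, 95.9 and 99.1 CPM in AML KO mice (log2 fold change 0.48, standard error 0.213, adjusted p = 0.28). AML WT replicate 3 exceeded AML KO replicate 2, so that the groups overlapped. Ndufb2 had the fewest counts of complex I, 193 to 296 per mouse, and a difference of 0.08 ± 0.182. Without both AML WT replicate 1 and AML KO replicate 1, Ndufs3, Ndufv2 and Ndufb2 had differences below 0, and with the length and GC offsets Ndufs3 and Ndufs8 did.

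In complex II the pairs of subunits diverged in sign without passing the test. Sdha, the flavoprotein that oxidises succinate, was measured at 329, 279 and 285 CPM in AML WT, 282 and 280.3 CPM in AML HET and 265, 286 and 259 CPM in AML KO mice (log2 fold change -0.14, standard error 0.113, adjusted p = 0.499). Sdhb, the iron-sulfur subunit, was measured at 113, 122 and 127 CPM in AML WT, 104 and 108 CPM in AML HET and 109.7, 121 and 102 CPM in AML KO mice (log2 fold change -0.12, standard error 0.113, adjusted p = 0.563). Both catalytic subunits were slightly lower on average in AML KO mice, with overlapping groups. The membrane anchors were higher on average: Sdhc was at 102, 134 and 120.04 CPM in AML WT, 111 and 128 CPM in AML HET and 161, 136 and 134 CPM in AML KO mice (log2 fold change 0.28, standard error 0.141, adjusted p = 0.323). Sdhd was at 164, 183 and 209 CPM in AML WT, 204 and 193 CPM in AML HET and 301, 180.3 and 191 CPM in AML KO mice (log2 fold change 0.27, standard error 0.195, adjusted p = 0.448), and its highest value by far came from AML KO replicate 1. Without that mouse the median of complex II was -0.06, and without AML WT replicate 1 and AML KO replicate 1 Sdhd had a difference of -0.08.

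In complex III 3 of the 4 core genes had values below 0, and all 5 small subunits had values above 0. Uqcrc1 and Uqcrc2, the core proteins on the matrix side, differed by -0.09 ± 0.121 and -0.29 ± 0.138, and Cyc1, which encodes cytochrome c1, by -0.11 ± 0.106. Uqcrc2 was measured at 194, 148 and 185 CPM in AML WT, 172 and 169 CPM in AML HET and 151, 155 and 126 CPM in AML KO mice (adjusted p = 0.306 in edgeR's quasi-likelihood test). Its groups overlapped because AML WT replicate 2 lay below AML KO replicates 1 and 2. Uqcrfs1, the Rieske iron-sulfur protein, was the one core gene above 0 (0.20 ± 0.14), and it came to -0.0031 without AML WT replicate 1 and AML KO replicate 1. The 5 small subunits Uqcr10, Uqcr11, Uqcrb, Uqcrh and Uqcrq were all above 0, from 0.28 to 0.65, though Uqcr11 came to -0.06 with the length and GC offsets. Uqcrh, the acidic hinge protein at the cytochrome c docking site, had the most counts of the complex, with 163, 298 and 310.1 CPM in AML WT, 323 and 343 CPM in AML HET and 553, 299.6 and 358 CPM in AML KO mice (log2 fold change 0.65, standard error 0.274, adjusted p = 0.267). AML KO replicate 1 was the highest and AML WT replicate 1 the lowest mouse, and AML KO replicate 2 lay within the AML WT range. Uqcrq did not overlap, with 60.3, 114 and 114 CPM in AML WT and 173, 117 and 116 CPM in AML KO mice (log2 fold change 0.50, standard error 0.25, adjusted p = 0.319). The gap between AML WT replicate 2 and AML KO replicate 3 was small beside the distance of AML WT replicate 1 from both. Uqcrb, the ubiquinone-binding protein with the fewest counts of the complex, differed by 0.28 ± 0.203 and by -0.07 without AML WT replicate 1 and AML KO replicate 1.

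All 16 nuclear genes of complex IV were above 0. The smallest p of all 81 genes was that of Cox4i2, the isoform of subunit 4 known from lung and from low-oxygen conditions, with 5.58, 8.5 and 7.99 CPM in AML WT, 6.38 and 8.06 CPM in AML HET and 14.6, 9.57 and 12.2 CPM in AML KO mice (log2 fold change 0.72, standard error 0.233, adjusted p = 0.185, unadjusted p = 0.0118). Every AML KO mouse exceeded every AML WT and AML HET mouse, at 182 to 446 counts per mouse. Its log2 fold change of 0.72, a fold change of 1.65, came to a log2 fold change of 0.40 without AML WT replicate 1 and AML KO replicate 1. Cox5a, a subunit of the matrix side, was at 49.5, 80.8 and 86.6 CPM in AML WT, 69.7 and 87.8 CPM in AML HET and 123, 96.3 and 92.4 CPM in AML KO mice (log2 fold change 0.52, standard error 0.215, adjusted p = 0.262). Its neighbour Cox5b was at 127, 195 and 183 CPM in AML WT, 149.98 and 184 CPM in AML HET and 209.7, 199 and 203 CPM in AML KO mice (log2 fold change 0.28, standard error 0.165, adjusted p = 0.375). Neither overlapped between AML KO and AML WT mice, and in both AML WT replicate 1 was the lowest mouse. Of the other subunits, Cox6c differed by 0.45 ± 0.229, Cox7b by 0.14 ± 0.196, Cox7c by 0.52 ± 0.264, Cox8a by 0.30 ± 0.165 and Ndufa4 by 0.36 ± 0.191, all with overlapping groups. With the length and GC offsets Cox7b and Cox8a came below 0, as did Cox7b without AML WT replicate 1.

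Several complex IV subunits have paralogs, of which one is known as the widespread and the other as a tissue form. Per kilobase of merged exons, Cox4i1 had 569 ± 136 CPM per kb (SD, n = 3) in AML WT mice against 9.34 ± 1.98 CPM per kb for Cox4i2. In the same mice and scale Cox6a1 had 299.7 ± 64.6 against 1.57 ± 0.608 CPM per kb for Cox6a2, the heart and muscle form, and Cox6b1 326 ± 73.9 against 28.02 ± 7.11 CPM per kb for Cox6b2, the testis form. Cox7a2 had 177 ± 31.2 CPM per kb, the related supercomplex factor Cox7a2l 225 ± 16.2 CPM per kb, and Cox7a1, the muscle form, 2.17 ± 0.682 CPM per kb. In each pair the widespread form lay far above the tissue form in all 3 genotypes. Cox6a2 and Cox7a1 were near the lower end of the table, with 15 to 54 and 26 to 57 counts per mouse, where counting error is large, and their differences of 0.09 ± 0.501 and 0.14 ± 0.405 were smaller than their standard errors. The widespread forms Cox4i1 (0.38 ± 0.209), Cox6a1 (0.36 ± 0.18), Cox6b1 (0.39 ± 0.191) and Cox7a2 (0.37 ± 0.182) had differences of close size between AML KO and AML WT mice. Cox7a2l differed by 0.23 ± 0.13 and Cox6b2 by 0.53 ± 0.321. With the length and GC offsets Cox4i1, Cox6a1, Cox6a2, Cox7a1 and Cox7a2l came below 0.

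**Figure D5:**
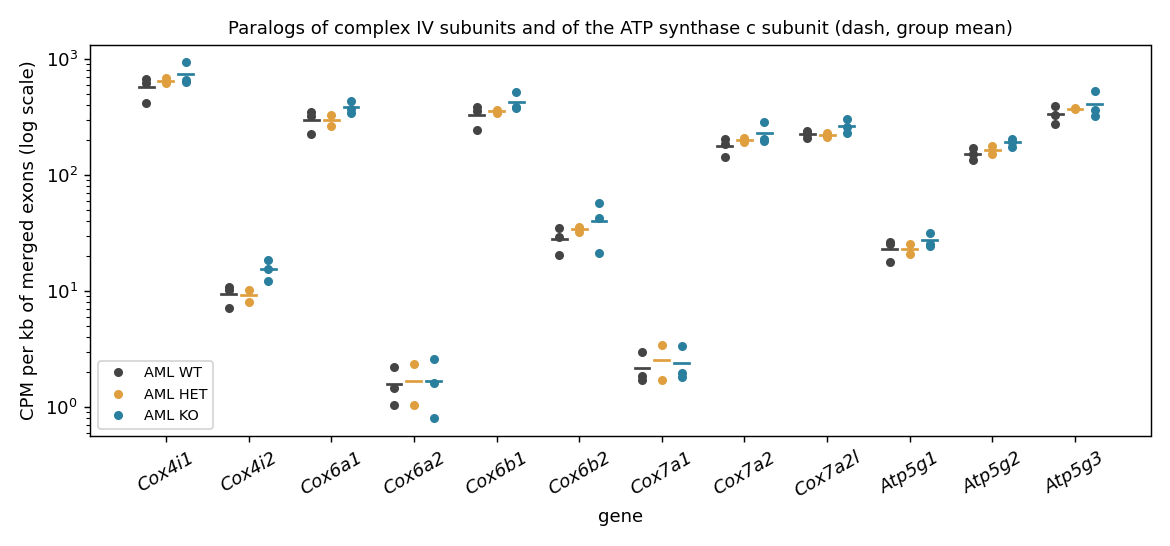
Level per kilobase of merged exons (CPM per kb, log scale) of paralogous complex IV subunits and of the 3 genes for the ATP synthase c subunit, 1 point per mouse and a dash for the group mean. Cox4i1, Cox6a1, Cox6b1 and Cox7a2 lie well above Cox4i2, Cox6a2, Cox6b2 and Cox7a1 in every mouse, and the merged exons of Atp5g1 sum to 4912 bases, against 731 for Atp5g2 and 724 for Atp5g3.

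In complex V the genes of the catalytic head were among the few with lower values. Atp5b, the catalytic beta subunit, was at 1104, 997 and 907 CPM in AML WT, 774 and 814 CPM in AML HET and 702, 957 and 786 CPM in AML KO mice (log2 fold change -0.30, standard error 0.147, adjusted p = 0.312). Atp5a1, the alpha subunit and the gene with the most counts of complex V, was at 1133, 1031 and 985 CPM in AML WT, 873 and 899 CPM in AML HET and 886, 1013 and 896 CPM in AML KO mice (log2 fold change -0.17, standard error 0.121, adjusted p = 0.44). The highest mouse for both was AML WT replicate 1, and AML KO replicate 2 lay within the AML WT range. Atp5c1, the gamma subunit of the rotating shaft, differed by -0.21 ± 0.111, and the other shaft subunits by 0.12 ± 0.121 (Atp5d) and 0.49 ± 0.222 (Atp5e). Of these 5 F1 genes, Atp5a1, Atp5b and Atp5c1 have merged exons of 2904, 1916 and 1815 bases and lay below 0, and Atp5d and Atp5e, with 1415 and 421 bases, lay above. With the offsets Atp5d came to -0.19.

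The c ring, which turns as protons pass, is encoded by Atp5g1, Atp5g2 and Atp5g3, whose mature proteins are known to be identical. Atp5g2 was at 98.6, 110.1 and 124 CPM in AML WT, 111 and 130.5 CPM in AML HET and 149.6, 140.3 and 128 CPM in AML KO mice (log2 fold change 0.33, standard error 0.131, adjusted p = 0.251). It was higher in all AML KO than in all AML WT mice, and AML HET replicate 2 lay within the AML KO range. Atp5g3 differed by 0.29 ± 0.201 and Atp5g1 by 0.24 ± 0.176, both with overlapping groups. In AML WT mice Atp5g3 had 332 ± 61.8, Atp5g2 152 ± 17.3 and Atp5g1 23.2 ± 4.57 CPM per kb (SD, n = 3). The merged exons of Atp5g1 sum to 4912 bases over its forms in the basic set of the annotation, so that its level per length is uncertain. Atp5l, a membrane subunit at the dimer interface, was at 57.3, 104 and 112 CPM in AML WT, 100.2 and 108 CPM in AML HET and 177, 114 and 119.8 CPM in AML KO mice (log2 fold change 0.59, standard error 0.254, adjusted p = 0.274). Atp5s had the fewest counts of the complex, 118 to 236 per mouse, and a difference of 0.07 ± 0.253. Without AML WT replicate 1 and AML KO replicate 1, Atp5g1, Atp5g3 and Atp5s were below 0, and with the offsets Atp5g2 and Atp5g3 were.

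Exons of 28 of the 81 genes overlap another annotated gene, in 25 cases one on the opposite strand, and whether the counting used strand is not given in the sources used here. Among the genes named above this holds for Ndufa2, Ndufa3, Ndufa9, Ndufb2, Ndufb11, Ndufs1, Ndufs3, Uqcrb, Uqcrc2, Cox4i1, Cox5a, Cox6a2, Cox6c, Atp5a1, Atp5d, Atp5g2 and Atp5l, whose counts are uncertain to that extent. Genes such as these also have processed pseudogenes elsewhere in the genome that share their sequence. The table lists 0 pseudogenes named after the 81 genes, and how reads shared with such copies were counted is not given in the sources used here.

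Loss of 1 Gab2 allele was addressed by AML HET against AML WT mice. None of the 81 genes passed edgeR's quasi-likelihood test (0.0225% of all genes did), and DESeq2 (0.443% of all genes) and limma-voom (0.00752%) called none. None had an unadjusted p under 0.05 in any of these tools, where 2.47% of all genes did in edgeR, 2.81% in DESeq2 and 2.35% in limma-voom. The median log2 fold change was 0.09 and 53 of 81 genes were above 0, as were 48.5% of all genes. With the length and GC offsets the median was -0.04, with 29 of 81 above 0. Without offsets it was -0.03 over the core genes (10 of 23 above 0) and 0.11 over the accessory genes (43 of 58). With offsets both medians lay below 0, at -0.09 over the core genes (6 of 23 above 0) and -0.02 over the accessory genes (23 of 58). The groups did not overlap for 9 genes (11.1%, beside 18.1% of all genes). Uqcrh was higher (9.53% of all genes were), and Ndufa9, Ndufs8, Ndufv1, Sdhb, Cyc1, Uqcrc1, Atp5a1 and Atp5b were lower in both AML HET mice than in any AML WT mouse (8.61% of all genes were). Of these 8 lower genes, all but Ndufa9 encode core subunits. All 8 also have merged exons of more than 1000 bases, so that core class and exon length cannot be told apart here. The smallest p was that of Atp5b (log2 fold change -0.34, standard error 0.166, adjusted p = 0.99), followed by Atp5a1 (log2 fold change -0.24, standard error 0.136, adjusted p = 0.99). Without AML WT replicate 1 the median over the 81 genes was -0.06, with 23 above 0. The AML HET group held 2 mice.

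Loss of the second allele was addressed by AML KO against AML HET mice. Again none of the 81 genes was called by edgeR, DESeq2 or limma-voom (0% of all genes in edgeR, 0.579% in DESeq2 and 0% in limma-voom). At an unadjusted p under 0.05 edgeR found 2 of the 81, Cox4i2 and Atp5d, both higher, beside 5.86% of all genes, or 3.52% that were higher. DESeq2 found 3 beside 6.69% of all genes, and limma-voom 3 beside 5.6%. Cox4i2 differed by 0.75 ± 0.265 (adjusted p = 0.759) and Atp5d by 0.31 ± 0.137 (adjusted p = 0.835) on the log2 scale. The median was 0.21 with 70 of 81 genes above 0, beside 50.1% of all genes, 0.09 over the core and 0.27 over the accessory genes. With the offsets it was 0.10, with 57 of 81 above 0. The groups did not overlap for 29 genes (35.8%, beside 24.2% of all genes), 27 of them higher in AML KO mice, beside 13.2% of all genes. Ndufs1 and Uqcrc2 were the lower ones, beside 11% of all genes. Without AML KO replicate 1 the median was 0.11. This comparison and that of AML HET with AML WT mice share the AML HET mice, so that their values are not independent. Atp5b was measured at 1003 ± 98.5 CPM (SD, n = 3) in AML WT, 794 ± 28.2 CPM (SD, n = 2) in AML HET and 815 ± 129.99 CPM (SD, n = 3) in AML KO mice, the last pair being closer than their spread.

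The factors that build the complexes were compared by lists written for this pathway. None of their genes passed edgeR's quasi-likelihood test between AML KO and AML WT mice. Of 16 complex I assembly genes 10 were above 0, with a median log2 fold change of 0.05, and the smallest p were those of Ndufaf8 (log2 fold change 0.92, standard error 0.262, adjusted p = 0.137) and Ndufaf3 (log2 fold change 0.41, standard error 0.162, adjusted p = 0.248), both assembly factors. For Ndufaf8 the values were 12.05, 23.01 and 22.3 CPM in AML WT, 19.5 and 24.6 CPM in AML HET and 46.1, 31.6 and 30.4 CPM in AML KO mice. All AML KO mice lay above all AML WT mice, as did Uqcc3 (log2 fold change 0.63, standard error 0.198, adjusted p = 0.177), which like Uqcc2 (0.43 ± 0.262) serves complex III assembly. Of 6 complex III assembly genes 5 were above 0 (median 0.24), and of 4 complex II assembly genes 3 were (median 0.27), with Sdhaf4 at 0.42 ± 0.229 and Sdhaf1 at 0.66 ± 0.408. The 20 listed complex IV assembly genes had a median of 0.06 with 14 above 0, led by Cmc2 (0.61 ± 0.203) and Cox14 (0.58 ± 0.237), and Cox20, Sco2 and Pet117 are not listed. Of 4 genes for ATP synthase assembly and its inhibitor, 2 were above 0 (median 0.06), Atpif1, the inhibitor, at 0.47 ± 0.246 and the assembly factor Atpaf1 at -0.32 ± 0.21.

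The subunits encoded by mitochondrial DNA are partners of the nuclear ones in complexes I, III, IV and V. All 11 listed genes were above 0 between AML KO and AML WT mice, with a median log2 fold change of 0.51, and none passed the test or separated the groups. Their summed level was 9889 CPM, 16614 CPM and 22998 CPM in AML WT, 30540.5 CPM and 26026 CPM in AML HET and 29765 CPM, 17415 CPM and 23770.2 CPM in AML KO mice. The lowest mouse was again AML WT replicate 1, and the highest was AML HET replicate 1. The cytochrome b gene mt-Cytb differed by 0.63 ± 0.313 and mt-Nd3 by 1.07 ± 0.52, the latter at 0.34 to 1.93 CPM. After the length and GC offsets the median was 0.44. Between AML HET and AML WT mice all 11 were above 0 too, with a median of 0.67 without offsets, and none passed the test. At an unadjusted p under 0.05 edgeR's quasi-likelihood test found 5 of them (45.5%, beside 2.47% of all genes). In both AML HET mice 5 were higher than in every AML WT mouse (45.5%, beside 9.53% of all genes). Between AML KO and AML HET mice 1 of the 11 was above 0, with a median of -0.19. Nuclear copies of mitochondrial DNA share sequence with these genes, so that their counts are uncertain, and mt-Nd4l and mt-Atp8 are not listed.

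Lists next to the respiratory chain gave mixed signs, with no gene passing the test. Of 18 genes of the citrate cycle and pyruvate dehydrogenase 5 were above 0 (median -0.16), with Idh3a at -0.34 ± 0.158 and Idh3b at -0.21 ± 0.1, subunits of the NAD-dependent isocitrate dehydrogenase. Of 17 genes of electron carriers and ubiquinone synthesis 9 were above 0 (median 0.04), with Etfb, of the electron transfer flavoprotein, at 0.63 ± 0.221 and Coq5 at -0.25 ± 0.126. Of 12 regulators of mitochondrial biogenesis 5 were above 0 (median -0.08), with the coactivator Ppargc1b at -0.70 ± 0.289 and Gabpb1, of the GABP factor, at 0.22 ± 0.113, and Ppargc1a is not listed. The 77 mitochondrial ribosome genes had a median of 0.20 with 63 above 0, led by Mrpl57 (0.56 ± 0.196) and Mrpl52 (0.69 ± 0.248), and a median of 0.01 with the offsets. All genes tested had a median of -0.02.

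Promoter sequence was examined because the factors NRF1, GABP of the ETS family, YY1 and SP1 are known for binding many genes of this pathway. RefSeq windows of 250 bases before to 50 after the start (GRCm38.p6) were matched for 66 of the 81 genes. Only the first listed window of each gene was used, so that other starts were not searched. Both strands were searched. The NRF1 letters, those in capitals in the sequences given here, read the same on both strands and were in 5 windows (7.58%, beside 2.08% of 9854 windows of tested genes and 0.977% of all 27025 windows). The ETS letters CCGGAAG were in 15 (22.7%, beside 18.5% and 9.12%), the YY1 letters AAGATGGCG in 6 (9.09%, beside 3.30% and 1.49%), the SP1 letters GGGCGG in 27 (40.9%, beside 63.7% and 35.9%) and TATAAA in 5 (7.58%, beside 6.96% and 14.2%). No motif contains another of these. The 5 genes with the NRF1 letters span complexes I, III, IV and V, and 30 bases around the letters (in capitals) are given for each on the strand of the gene, as the stretch that these otherwise unrelated genes share. They lie at chr17:56717692-56717721 (plus strand, Ndufa11), chr9:108936668-108936697 (plus, Uqcrc1), chr5:115349101-115349130 (minus, Cox6a1), chr15:102671070-102671099 (minus, Atp5g2) and chr5:108434430-108434459 (minus, Atp5k).
Ndufa11: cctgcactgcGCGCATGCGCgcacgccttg
Uqcrc1: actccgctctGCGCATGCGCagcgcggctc
Cox6a1: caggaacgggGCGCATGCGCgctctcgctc
Atp5g2: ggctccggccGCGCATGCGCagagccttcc
Atp5k: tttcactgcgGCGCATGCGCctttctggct
The letters begin 60 bases upstream of the start in Ndufa11, 162 in Cox6a1, 42 in Atp5g2 and 50 in Atp5k, and 31 bases downstream in Uqcrc1. The start meant is that of the RefSeq window, which can differ from the end of the gene in GENCODE M21. In GENCODE M21 Atp5g2, on the minus strand, reaches to position 102672352, so that its stretch lies inside the annotated gene. Between AML KO and AML WT mice these genes differed by 0.44 ± 0.204 (Ndufa11), -0.09 ± 0.121 (Uqcrc1), 0.36 ± 0.18 (Cox6a1), 0.33 ± 0.131 (Atp5g2) and 0.56 ± 0.259 (Atp5k) on the log2 scale, so that genes with the same letters had differences of either sign. Nrf1 itself was at 64.6, 60.7 and 64.8 CPM in AML WT and 65.96, 66.9 and 70.02 CPM in AML KO mice (log2 fold change 0.09, standard error 0.105, adjusted p = 0.631). Every AML KO mouse lay above every AML WT mouse, as for 12.3% of all genes, though the groups lay close together. A match of letters is a description of the window and not a binding site, and its relation to the levels was not tested.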

How the data were processed

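Per the labels, each of 8 mice gave 1 library of whole BM RNA, so p-values measure the spread between mice. The authors deposited whole-number read counts per gene without normalization, in 1 table of 13305 Ensembl identifiers, none with fewer than 106 counts over the 8 mice. The submitters' processing notes name Trimmomatic 0.36, STAR 2.5.2b and the build mm10. The counter, its annotation and its strand setting are not given in the sources used here, and the Roman numerals of the column names were read as the mouse numbers of the labels. Library totals run from 28009258 to 39266815 counts, so that counting error matters for few of the subunit genes.

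Counts were normalized with TMM and tested in R 4.3.3 with edgeR 4.0.16 (robust quasi-likelihood fit of all 8 mice with genotype as the only term, since the paper's text names no RNA-seq test, and filterByExpr, which removed none). Adjusted p are Benjamini-Hochberg values across the 13305 genes tested, called at 0.05. Standard errors come from the F statistic. CPM use TMM library sizes, and per-mouse medians log2 CPM with a prior count of 2. Exon lengths and CPM per kb use the merged exons of the basic set of GENCODE M21, and 13266 identifiers were found in GENCODE M21. Tested on simulated counts with larger changes, the fit found changed genes with the right sign. Whether it would find changes as small as those of the subunit genes, in libraries that differ along exon length, was not tested. Alternatives were DESeq2 1.42.0, limma-voom 3.58.1, other normalizations and filters (at least 10 counts in every mouse, or none), AML WT and AML KO mice alone, the replicate number as a block, spline offsets with 5 degrees of freedom each for exon length and GC content in each library, and each mouse left out. Leaving out 2 mice together was added after seeing the data. Promoters and RefSeq windows were read with Python 3.11.15.

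The subunit genes and all gene lists were chosen with earlier results of these data known. Named genes were those of each complex with the 3 smallest p between AML KO and AML WT mice or the most or fewest counts, complex II, paralog families, the catalytic core, the 3 largest differences without overlap in each direction, and the 2 genes of each pathway list with the smallest p. Others, such as the remaining genes without overlap, were named after their values were seen. The values of 1 further gene that the naming rule selects are not reported here. No protein sequences were used here.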

Additional observations from a re-analysis of the deposited data

How the results depend on the processing

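No subunit gene passed an adjusted p of 0.05 in any of the 3 comparisons under any alternative run, at 0 calls each, and 0 of the 57 named subunit genes did. Over all genes, calls between AML KO and AML WT mice numbered 278 with edgeR, 730 with DESeq2 and 40 to 370 in the fits without 1 mouse (40 without AML WT replicate 2, 137 without AML KO replicate 1, 123 without AML KO replicate 3, 167 without AML WT replicate 1). Between AML HET and AML WT mice they numbered 3 with edgeR, 59 with DESeq2 and 1 with limma-voom, and between AML KO and AML HET mice 0, 77 and 0. Deviations of same-numbered mice from their group means correlated at -0.51 to 0.29, and those of differently numbered mice at -0.36 to 0.46. In groups this small such deviations are tied to each other, so that these values cannot decide whether replicate numbers pair the mice. With the replicate number as a block the all-gene calls were 19, the median over the 81 genes between AML KO and AML WT mice was 0.30, and the calls among them were 0.

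Between AML KO and AML WT mice the median over the 81 genes moved most with the length and GC offsets and without 2 mice. The offsets level exon length and GC content together, so that the part of each was not separated. Spearman's correlation of the log2 fold change of AML KO over AML WT mice with GC content was 0.05 across the 81 genes and 0.30 across 13266 genes. With length and GC offsets the median log2 value of AML KO over AML WT mice was 0.0431 over all 81 genes, 0.0904 in complex I, -0.0361 in complex II, 0.0387 in complex IV and 0.0032 in complex V. Without AML WT replicate 1 and AML KO replicate 1 together, which was chosen after seeing the data, it was 0.0122 over all, and 0.0328, -0.0655, -0.0031, 0.0439 and -0.0794 in complexes I to V. In the fits without 1 mouse it reached 0.41 over the 81 genes, 0.42 in complex I, 0.13 in complex II, 0.38 in complex III, 0.47 in complex IV and 0.33 in complex V, and its lowest values were 0.15 over the 81 genes and -0.0567 in complex II. The median between AML HET and AML WT mice ran from -0.0587 to 0.16 in these fits, and between AML KO and AML HET mice from 0.11 to 0.32, and with offsets these medians were -0.0378 and 0.1025. For these shifts the cause was not tested.

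Of the 57 named genes, 41 kept the sign of their difference in the 8 fits without 1 mouse and the 9 other alternatives. With offsets the sign changed for Ndufs3 (-0.20), Ndufs8 (-0.26), Cox4i1 (-0.0111), Cox6a1 (-0.12), Cox6a2 (-0.32), Cox7a1 (-0.28), Cox7a2l (-0.0124), Uqcr11 (-0.0592), Cox7b (-0.0057), Cox8a (-0.1045), Atp5d (-0.1933), Atp5g2 (-0.18) and Atp5g3 (-0.0118), and with upper-quartile normalization for Ndufv1 (0.0169). Ndufv1 was at -0.0671 without the 2 mice together, and in that fit the sign changed for Ndufs3 (-0.11), Ndufv2 (-0.0526), Ndufb2 (-0.0515), Sdhd (-0.0802), Uqcrfs1 (-0.0031), Uqcrb (-0.0658), Cox4i1 (-0.0069), Cox6a2 (-0.42), Cox7a1 (-0.30), Cox7b (-0.1567), Atp5g1 (-0.0428), Atp5g3 (-0.084) and Atp5s (-0.22). In the fits without 1 mouse, values reached 0.50 for Ndufv2, 0.40 for Sdhd and Uqcrb, 0.30 for Uqcrfs1, 0.52 for Cox4i1, 0.33 for Atp5g1 and 0.43 for Atp5g3, and they ran from -0.0462 to 0.22 for Ndufs3, -0.0888 to 0.063 for Ndufs8, -0.044 to 0.041 for Ndufv1, -0.0101 to 0.17 for Ndufb2, -0.37 to 0.42 for Cox6a2, -0.19 to 0.42 for Cox7a1, -0.065 to 0.3531 for Cox7b and -0.13 to 0.26 for Atp5s. Genes with few counts, such as Cox6a2 and Cox7a1, are limited by depth as well.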
